A study of Mus musculus with 8 samples.

Results

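The Fc receptors and Fc receptor-like genes of B-1a cells were compared between mice whose B cells lacked PTIP and control mice. The 10 genes were Fcgr2b, Fcrl1, Fcrl5, Fcrla, Fcrlb, Fcmr, Fcer2a, Pigr, Fcamr and Fcgrt. They were chosen by gene symbol, and each was represented by 1 probe set, so that they made up 10 of the 22180 named genes tested. B-1a cells are B cells of the body cavities that renew themselves there, and they were sorted from the peritoneal lavage of mice aged 5 weeks. The mutant mice had floxed alleles of Paxip1, the gene for PTIP (PTIPflox/flox), together with 1 allele of a Cre that works in the B lineage, and are called KO. The controls carried the same Cre allele and unmodified Paxip1 (PTIP+/+). The 29 KO and 22 control mice were divided into 4 pools per genotype, and 1 array was run per pool. The labels give neither the number of mice in each pool nor their sex nor the sort gates.

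Fc receptors bind the constant part of antibodies. On a B cell, the IgG receptor Fcgr2b is a brake: when an immune complex joins it to the B cell receptor, its inhibitory tyrosine motif recruits the lipid phosphatase SHIP1, which cuts the receptor's signal short. The Fc receptor-like proteins share the immunoglobulin-domain architecture, and those on the B cell surface modulate B cell receptor signals through tyrosine motifs in their tails. Other members bind IgM, IgA or IgE or carry immunoglobulin through cells.

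The 10 genes lie partly in clusters, by the RefSeq gene order of GRCm38.p6. Fcamr, Pigr and Fcmr are consecutive protein-coding genes on chromosome 1, Fcrlb and Fcrla lie next to each other on the same chromosome with 1 predicted gene between Fcrla and Fcgr2b, and Fcrl1 and Fcrl5 are neighbours on chromosome 3. Fcer2a is on chromosome 8 and Fcgrt on chromosome 7. The 250 bases before the RefSeq start of Fcgr2b and Fcrl5 are shown because these genes had the largest differences of the 10, and those of Fcrl1 because it neighbours Fcrl5 and was not called. They read 5′ to 3′ on each gene's own strand, at chr1:170976072-170976321 (minus strand), chr3:87435532-87435781 (plus strand) and chr3:87376137-87376386 (plus strand). Capitals mark matches to the motifs searched.
Fcgr2b: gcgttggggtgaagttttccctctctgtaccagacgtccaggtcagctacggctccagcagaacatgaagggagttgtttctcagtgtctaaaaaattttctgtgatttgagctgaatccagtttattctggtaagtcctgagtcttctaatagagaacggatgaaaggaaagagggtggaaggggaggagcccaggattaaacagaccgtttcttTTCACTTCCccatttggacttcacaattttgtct
Fcrl5: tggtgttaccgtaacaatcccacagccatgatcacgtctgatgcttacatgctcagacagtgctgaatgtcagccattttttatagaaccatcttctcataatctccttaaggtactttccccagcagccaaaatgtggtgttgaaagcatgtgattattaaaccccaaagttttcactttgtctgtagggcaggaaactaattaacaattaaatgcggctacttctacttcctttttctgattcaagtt
Fcrl1: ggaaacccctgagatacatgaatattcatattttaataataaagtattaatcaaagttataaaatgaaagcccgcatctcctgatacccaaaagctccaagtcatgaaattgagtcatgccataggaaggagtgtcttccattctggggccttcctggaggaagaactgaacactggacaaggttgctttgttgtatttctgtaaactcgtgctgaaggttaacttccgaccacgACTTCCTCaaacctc

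All 10 genes had at least 1 such window in the RefSeq table, 12 windows in all. They were searched on both strands for 5 motifs that were written down after the Fcgr2b window had been seen. The joint ETS and IRF motif GGAANNGAA was in the Fcgr2b window alone among the 12, on the opposite strand from base -34 to -26 counted from the start, and in 6.99% of all 32841 windows of the table. The PU.1 motif GAGGAAGT was in the windows of Fcrl1 and Fcrlb and in 2.44% of all. The interferon response core GAAANNGAA was in that of Fcrla (7.13% of all) and the E-box CACGTG in that of Pigr (6.02%). The octamer ATGCAAAT was in none of the 12, against 1.6% of all. The Fcrl5 window held none of the 5. These are matches of letters, not measured binding sites.

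Paxip1 itself stood at 4.38 ± 0.54 in KO and 7.05 ± 0.13 in control on the log2 scale of the arrays (SD, n = 4 pools each). Values here are log2 values of robust multi-array averaging (RMA), which are not comparable between genes, and a gene is called when limma's Benjamini-Hochberg adjusted p over all 22180 genes is under 0.05. By this rule 797 genes (3.59%) were called, 331 higher in KO (1.49%) and 466 lower (2.10%). With the quantile normalization repeated the split was 412 higher and 374 lower. Omission of KO pool 2 or control pool 2, 3 or 4 left 498, 530, 497 and 479 called genes. The 6 measured B cell markers were present in all pools (list means of 10.11 to 10.32 in KO and 10.24 to 10.36 in control), as was Cd5, the marker of B-1a cells, at 7.48 ± 0.19 and 7.44 ± 0.15. T cells also carry Cd5, and its difference was -0.09 without KO pools 1 and 2 and -0.12 with the T cell marker mean in the model.

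Of the 10 Fc receptor genes, 4 were called, as were 3.59% of all genes. Fcgr2b, Fcrl5 and Fcamr fell in KO and Fcgrt rose, while Fcrl1, Fcrla, Fcrlb, Fcmr, Fcer2a and Pigr did not pass the test. The falls were 3 of 10 (2.10% of all genes) and the rise 1 of 10 (1.49% of all genes). The median difference of the 10 genes was -0.14, against 0.02 over all genes tested. In 4 of the 10 genes, the same 4, the KO and control values did not overlap, as was so for 10.5% of all genes. All 10 lay above the median gene in mean value, which by itself does not show that a gene was expressed. The lowest were Fcrlb (percentile 51.1), Fcamr (61.1) and Pigr (62.7). The 10 genes were chosen with earlier results of these data known, so that these counts are a description of the list.

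**Figure D1:**
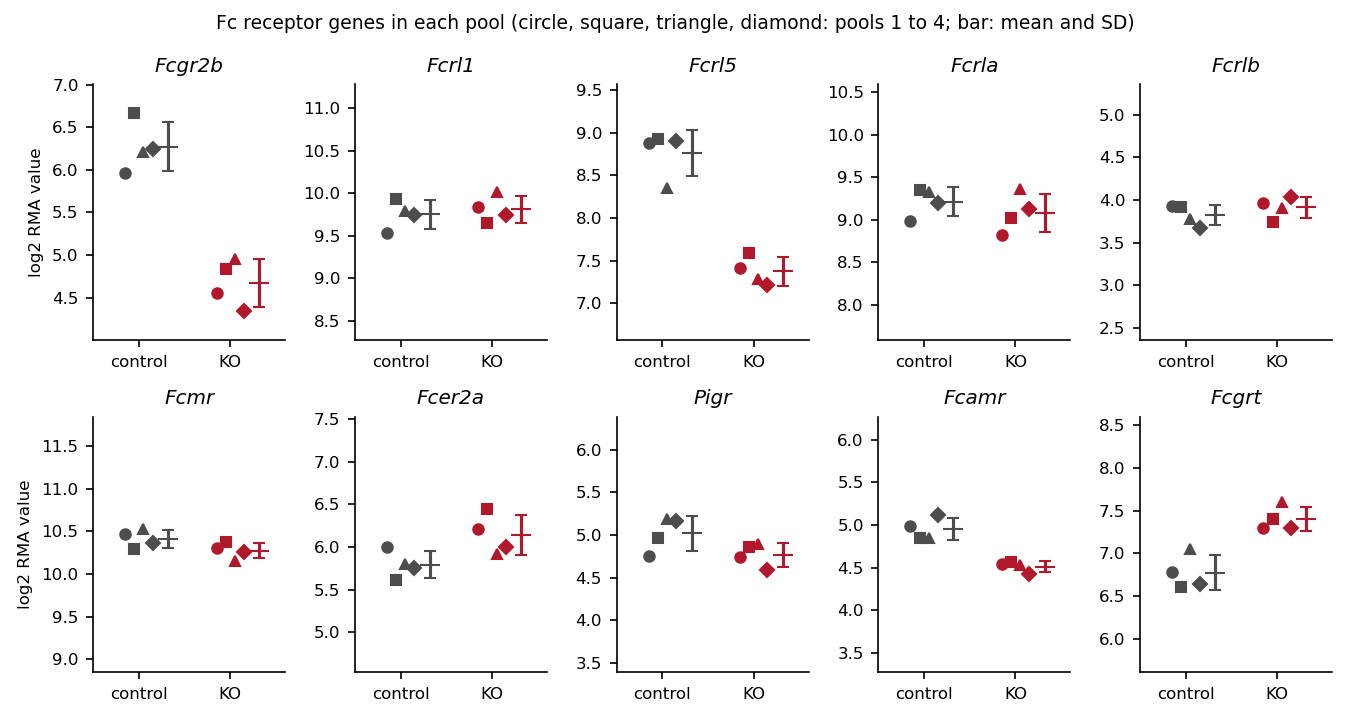
Log2 RMA value of each of the 10 genes in the 4 control pools (grey) and 4 KO pools (red); symbols are pools 1 to 4 and bars are the mean and SD. Every panel spans the same range of log2 units; the KO pools of Fcgr2b lie between 4.34 and 4.95 and its control pools between 5.97 and 6.66, whereas the pools of Fcrl1 overlap.

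Fcgr2b, the inhibitory IgG receptor, had the largest difference of the list. It stood at 4.55, 4.84, 4.95 and 4.34 in KO pools 1 to 4 and at 5.97, 6.66, 6.21 and 6.24 in control pools 1 to 4. All KO pools lay below the lowest control pool. Fcgr2b was 3.03-fold lower in KO, a log2 difference of -1.60 (95% interval -1.96 to -1.24; limma, adjusted p = 0.000364; lower in 4 of 4 KO pools). With 70 ways to assign the arrays to the groups, the exact permutation p (two-sided) was 0.0286, which is the smallest possible here. In a sorted population, fewer cells with the transcript and less transcript per cell cannot be told apart.

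Macrophages also carry Fcgr2b, and the peritoneal cavity is rich in them. Of 15 macrophage markers 1 fell, the lysosomal gene Cd68 (-0.56), and none rose. Of the 15 differences 7 were positive and 8 negative, with a median of -0.09. An unadjusted limma p under 0.05 was found for 4 of the 15. They were Cd68 and, named after their values were seen, Adgre1 (F4/80), the mannose receptor Mrc1 and Marco. Adgre1 and Mrc1 had differences of -0.76 and -0.85, whereas Marco differed by 0.33. Adgre1, Mrc1 and Marco were not called (limma, adjusted p = 0.122, 0.177 and 0.324). The mean of the 15 lay between 4.89 and 5.19 in the KO pools and between 4.83 and 5.57 in the control pools, so that the groups overlapped. With the macrophage mean as a covariate the Fcgr2b difference was -1.67 (adjusted p = 0.000653), and without control pool 1 it was -1.70. The call of Cd68 ended when any of KO pools 1 and 2 and control pools 1, 3 and 4 was omitted, and its adjusted p reached 0.268 over the alternatives.

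T cell markers stood higher in KO. All 11 measured had positive differences, with a median of 1.33; limma called 0, and 8 had an unadjusted p under 0.05. Their mean ran from 5.03 to 7.53 in the KO pools and from 4.29 to 5.48 in the control pools, highest in KO pools 1 and 2. The Fcgr2b difference was -1.63 without those 2 pools (adjusted p = 0.00974) and -1.59 with the T cell mean as a covariate (adjusted p = 0.00690). All 11 NK markers had positive differences too, and 2 rose, the receptors Klrd1 (1.83) and Klrb1c (0.73). The difference of Klrd1 was 1.11 without KO pools 1 and 2 and 0.67 with the T cell covariate. When pools were left out singly, Klrd1 stayed called only for KO pool 3 and control pool 2, and Klrb1c only for KO pools 2 and 4 and control pool 2; over all alternatives their adjusted p reached 0.238 and 0.258.

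Fcrl5, an Fc receptor-like protein of marginal zone and B-1 cells whose tail holds both an inhibitory and an activating-type motif, was the other large fall. It stood at 7.42, 7.58, 7.28 and 7.21 in KO pools 1 to 4 and at 8.88, 8.92, 8.35 and 8.90 in control pools 1 to 4. Control pool 3 was the low one of its group, yet it was above every KO pool. Fcrl5 was 2.62-fold lower in KO, a log2 difference of -1.39 (95% interval -1.69 to -1.09; limma, adjusted p = 0.000285; lower in 4 of 4 KO pools). Without control pool 3 the difference was -1.53, and without KO pools 1 and 2 it was -1.52 (adjusted p = 0.00432).

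Fcrl1, an activating co-receptor found on B cells in general, lies next to Fcrl5 and was not called. Its KO pools stood at 9.84, 9.65, 10.02 and 9.74 and its control pools at 9.53, 9.93, 9.79 and 9.74, so that the groups overlapped throughout. The difference was 0.06 (95% interval -0.18 to 0.30; limma, adjusted p = 0.860), and the interval leaves out a change of the size seen in Fcrl5. Its sign turned without KO pool 3 (-0.01) or control pool 1 (-0.01).

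Fcrla and Fcrlb encode intracellular members, and Fcrla binds immunoglobulin inside the B cell. Fcrla stood at 8.82, 9.02, 9.36 and 9.12 in KO and at 8.99, 9.36, 9.33 and 9.19 in control. Its difference was -0.13 (95% interval -0.41 to 0.14; limma, adjusted p = 0.690), and the sign turned when KO pools 1 and 2 were omitted (0.02) or the T cell mean was a covariate (0.08). Fcrlb stood at 3.92 ± 0.12 in KO and 3.82 ± 0.12 in control (SD, n = 4 pools each) and differed by 0.09 (95% interval -0.12 to 0.30).

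**Figure D2:**
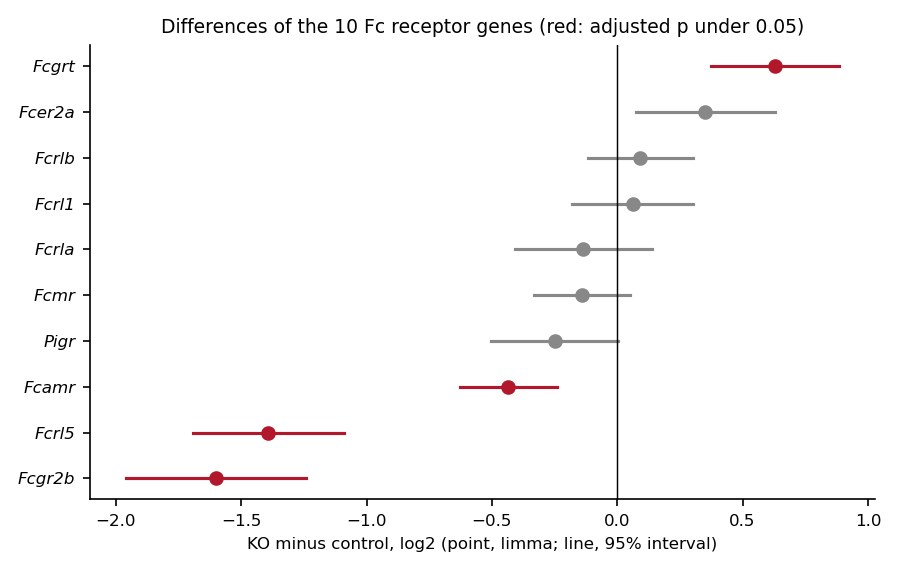
KO minus control difference of each of the 10 genes on the log2 scale (points, limma) with 95% intervals (lines), in order of size; red marks an adjusted p under 0.05. Fcgr2b (-1.60) and Fcrl5 (-1.39) stand apart at the low end, Fcamr is called at -0.44 and Fcgrt at 0.63.

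Among the receptors for IgM and IgA, Fcamr was called and its neighbours Pigr and Fcmr were not. Fcamr, which binds IgA and IgM, stood at 4.54, 4.56, 4.53 and 4.43 in KO pools 1 to 4 and at 4.99, 4.85, 4.84 and 5.12 in control pools 1 to 4. The KO pools were close together and all below the lowest control pool. It was 1.35-fold lower in KO, a log2 difference of -0.44 (95% interval -0.63 to -0.24; limma, adjusted p = 0.0209). The call was lost without KO pool 4 (adjusted p = 0.0604), control pool 1 (0.0560) or control pool 4 (0.0620), when KO pools 1 and 2 were omitted together (0.107) and with the T cell mean as a covariate (0.142), and adjusted p ran from 0.0109 to 0.142 over its alternatives. The difference kept its sign in each, between -0.47 and -0.38.

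Fcmr, the IgM receptor of B cells, was bright in both groups. Its KO pools stood at 10.31, 10.37, 10.16 and 10.26 and its control pools at 10.47, 10.29, 10.53 and 10.37. The difference was -0.14 (95% interval -0.33 to 0.05; limma, adjusted p = 0.503). Pigr, which carries polymeric IgA and IgM across epithelia, stood at 4.74, 4.86, 4.89 and 4.58 in KO and at 4.75, 4.97, 5.19 and 5.16 in control. Control pools 3 and 4 were above all KO pools and the others overlapped. Its difference was -0.25 (95% interval -0.50 to 0.00; limma, adjusted p = 0.330). Of 8 epithelial markers 2 fell, the keratins Krt8 (-1.03) and Krt18 (-1.08, and -0.69 with the mean of its probe sets), and 1 rose, the adhesion molecule Epcam (0.84). The mean of the 8 lay between 4.18 and 4.30 in KO and between 4.33 and 4.52 in control, and its part in the values of Pigr was not tested.

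Fcer2a encodes CD23, the low affinity IgE receptor, which follicular B cells carry at high level and B-1 cells at low level. It stood at 6.206, 6.443, 5.921 and 6.003 in KO pools 1 to 4 and at 5.996, 5.614, 5.796 and 5.757 in control pools 1 to 4. KO pool 3 lay below control pool 1, so the groups overlapped, and KO pools 1 and 2 were the highest. The difference was 0.35 (95% interval 0.08 to 0.63; limma, adjusted p = 0.190; exact two-sided permutation p = 0.0571). The pools with the highest Fcer2a were also those with the highest T cell mean. The difference was 0.17 without them and 0.16 with the T cell mean as a covariate, and Fcer2a was not called in any of its 19 alternatives. Leaving out the KO pools with the highest Fcer2a lowers its difference in any case. The part of T cells in the values of Fcer2a was not tested.

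Fcgrt encodes the heavy chain of the neonatal Fc receptor, which returns endocytosed IgG and albumin to the surface. It was the only rise among the 10 in this fit. KO pools 1 to 4 stood at 7.30, 7.40, 7.60 and 7.30 and control pools 1 to 4 at 6.79, 6.60, 7.06 and 6.64. Every KO pool was above the highest control pool. Fcgrt was 1.55-fold higher in KO, a log2 difference of 0.63 (95% interval 0.37 to 0.89; limma, adjusted p = 0.0127; higher in 4 of 4 KO pools). The call was lost without KO pools 1 and 2, where the difference was 0.68 (adjusted p = 0.0778), and held in the other 18 of its 19 alternatives. B2m encodes its light chain and was chosen after its values were seen. It was among the brightest values of the arrays, at 13.04 ± 0.04 in KO and 12.95 ± 0.03 in control. B2m was not called (difference 0.09, limma adjusted p = 0.629), although its groups did not overlap.

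The neighbours were set against each other within arrays, as a description. In all 7 pairs within the 3 clusters, the log2 value of the second gene was subtracted from that of the first on each array and the result was compared between genotypes. The pairs were formed with the values known, and 3 of them hold Fcgr2b or Fcrl5, whose own groups did not overlap, which largely fixes how those pairs separate. Relative to Fcrl1, Fcrl5 differed by -1.45 between KO and control (SE 0.22). Fcgr2b differed by -1.47 relative to Fcrla (SE 0.16) and by -1.69 relative to Fcrlb (SE 0.24). In these 3 pairs the groups did not overlap, and the exact permutation p was 0.0286, the smallest the design allows, and 0.0667 after Benjamini-Hochberg adjustment over the 7. The differences in the other 4 pairs were smaller, at -0.19 for Fcamr relative to Pigr (SE 0.13), -0.29 for Fcamr relative to Fcmr (SE 0.10), -0.11 for Pigr relative to Fcmr (SE 0.14) and -0.23 for Fcrla relative to Fcrlb (SE 0.17). No pair had an adjusted p under 0.05. Since the exact p cannot go below 0.0286, most of the 7 pairs would have had to reach it for any to pass. The adjusted test therefore cannot decide whether neighbours responded unequally.

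**Figure D3:**
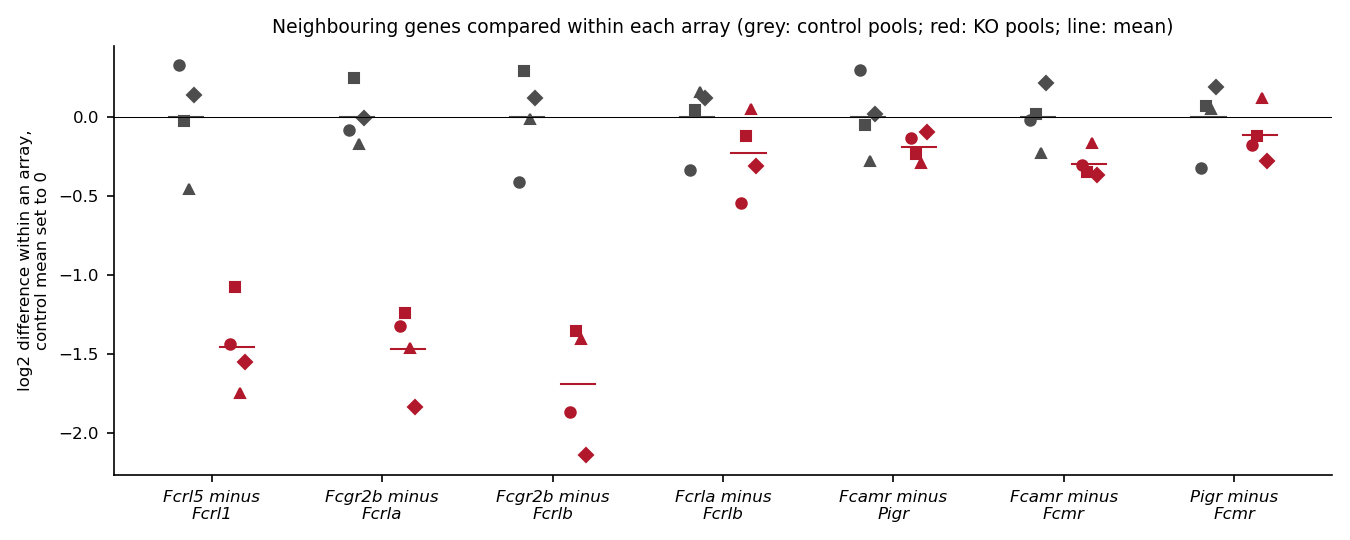
Log2 value of 1 gene minus that of its chromosomal neighbour within each array, with the control mean set to 0, in control (grey) and KO (red) pools; symbols are pools 1 to 4 and lines are means. The pairs of Fcrl5 with Fcrl1 and of Fcgr2b with Fcrla or Fcrlb separate by genotype, and the groups of the other 4 pairs overlap.

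The other Fc receptors on the array belong mostly to myeloid, mast and NK cells, and 0 of 9 were called by limma, with 1 at an unadjusted p under 0.05. This was Fcgr4, an activating IgG receptor of myeloid cells, with a difference of -0.47 (adjusted p = 0.1001) and groups that did not overlap. Fcer1g, the signalling chain that activating Fc receptors share, differed by 0.47 (adjusted p = 0.399). Its control pools spread from 4.83 to 6.26, the highest being control pool 1, and without that pool it was called, at 0.74 (adjusted p = 0.0345). Control pool 1 also had the highest mast cell marker mean (3.98, against 3.04 to 3.24 in the other control pools). Its macrophage marker mean was the highest too (5.57, against 4.83 to 5.14 in the other control pools). The part of these or other cells in the values of Fcer1g was not tested. Fcgr1 and Fcrls differed by -0.15 and 0.05. Fcgr3, named after its values were seen because its outer part is nearly identical to that of Fcgr2b and probes may not separate them, stood at 4.23 ± 0.15 in KO and 4.17 ± 0.06 in control. Its difference of 0.06 was not called and turned sign without KO pool 2 (-0.01).

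Of the 11 measured genes that carry or limit inhibitory signals, 2 fell and 0 rose, with a median difference of -0.16. Inppl1, the phosphatase SHIP2, fell by 0.64 and the adaptor Dok3 fell by 0.55 (adjusted p = 0.0267 and 0.0309). When pools were left out singly, Inppl1 stayed called only for KO pool 2 and control pools 1 and 3, and Dok3 only for KO pool 3 and control pool 2; over all alternatives their adjusted p reached 0.0702 and 0.292. With the T cell covariate the Dok3 difference was -0.36. Inpp5d, which encodes SHIP1, the main effector of Fcgr2b, differed in the other direction by 0.31 without a call (9.26 ± 0.06 in KO and 8.94 ± 0.09 in control; adjusted p = 0.0646), and its groups did not overlap. It was called in 2 of its 19 alternatives. The phosphatase Ptpn11 (SHP-2) differed by 0.36 (adjusted p = 0.0596) and was called in 3 of 19.

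Among 11 measured genes of the B cell receptor and its co-receptor, 1 rose and 0 fell, with a median of -0.04. The rise was Cr2, complement receptor CD21, at 5.43 ± 0.15 in KO and 4.70 ± 0.40 in control (difference 0.74, adjusted p = 0.0411). When pools were left out singly it stayed called only for control pool 1, and adjusted p reached 0.1501 over its alternatives. The tetraspanin Cd81 and the signalling genes Pik3ap1 and Plcg2 differed by -0.21, 0.21 and -0.17 without a call. Of the B cell markers, Cd22, an inhibitory receptor, fell by 0.59 (adjusted p = 0.0170), a call that ended when either KO pool 4 or control pool 4 was omitted (adjusted p up to 0.138 over its alternatives).

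Of the ligands and partners, 8 of 15 were measured, and 1 rose and 1 fell. Jchain, which joins IgM and IgA into the polymers that Pigr carries, stood at 5.44, 5.13, 5.72 and 5.75 in KO pools 1 to 4 and at 4.04, 3.98, 3.85 and 4.21 in control pools 1 to 4. It was higher in all KO pools, by 1.49 (SE 0.14; limma, adjusted p = 0.000197). Of the 8 plasma cell markers Jchain was the only one called, and differences were positive in 5 and negative in 3. The 3 were Irf4 (-0.34), Xbp1 (-0.35) and Derl3 (-0.44), named after their values were seen. Each had an unadjusted limma p under 0.05. Ighg3, the constant region of IgG3, fell by 2.52 (SE 0.11), and by 1.53 with the mean of its probe sets. Adam10, the protease that sheds CD23, and Rab25, of the epithelial recycling pathway, differed by 0.23 and -0.33 without a call.

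**Figure D4:**
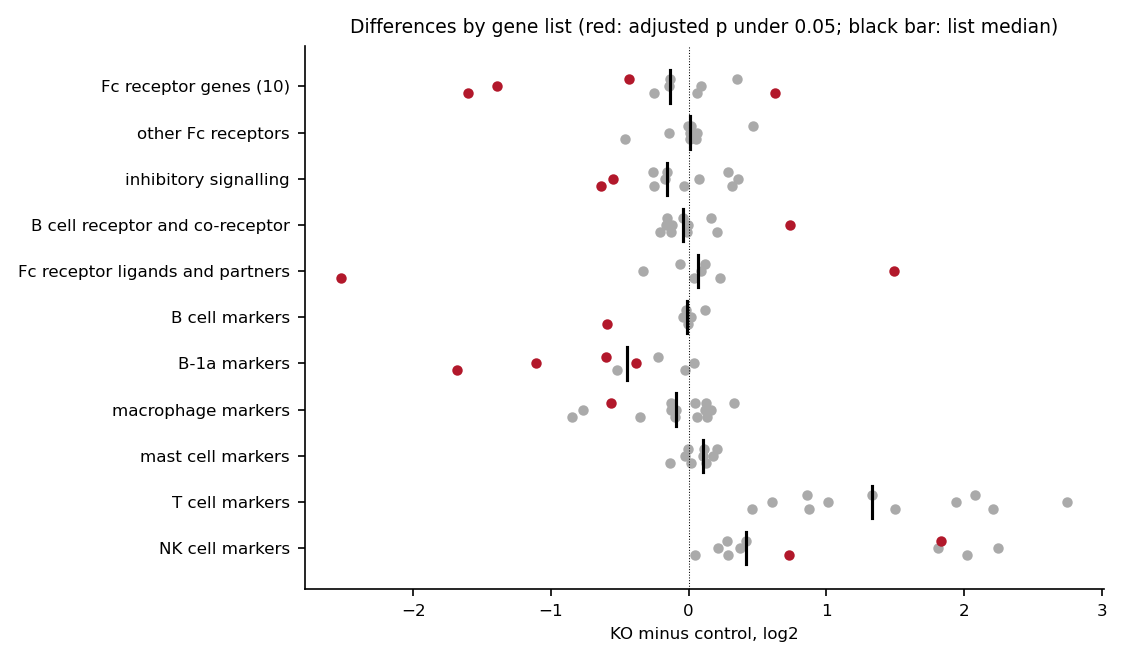
KO minus control difference on the log2 scale of each measured gene, by list; each point is a gene, red points had an adjusted p under 0.05 and black bars are list medians. The 10 Fc receptor genes have a median of -0.14 with 2 genes far below it, while the T cell markers all lie to the right of 0 with 0 called.

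Of 8 B-1a markers, 4 fell and 0 rose, with a median of -0.45, and their mean lay between 7.18 and 7.27 in KO and between 7.74 and 7.83 in control. Not called were Spn (-0.52), Plscr1 (-0.23), Bhlhe41 (-0.02) and Cd5 (0.04), named after their values were seen. Itgam (CD11b), an integrin chain that B-1 cells of the body cavities share with macrophages, fell by 1.68 and the repressor Zbtb32 by 1.11. The tetraspanin Cd9 fell by 0.60, and by 0.34 with the mean of its probe sets, and the scaffold gene Ahnak by 0.38, but the omission of KO pool 2 or of control pool 4 ended the call of Cd9, and that of any of KO pools 1 and 2 and control pools 2, 3 and 4 ended the call of Ahnak; over all alternatives their adjusted p reached 0.219 and 0.257. The part of these markers in the falls of Fcgr2b and Fcrl5 was not tested.

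The genes whose profiles over the 8 arrays came closest to those of Fcgr2b and Fcrl5 were found by the distance between log2 values after each gene's mean was subtracted, as a description. Nearest to Fcgr2b were Cd300lf, an inhibitory receptor of the CD300 family (distance 0.34), the cytokine receptor Lifr (0.61) and Tnfsf4, the ligand of OX40 (0.74). Their differences were -1.63, -1.55 and -1.77. Nearest to Fcrl5 were Akap17b (0.52), the protease gene Prss23 (0.57) and Ms4a6c, of the CD20 family (0.64), with differences of -1.11, -1.09 (-0.71 with the mean of the probe sets of Prss23) and -1.40. All 6 were called, also in each of their 19 alternatives, which their choice by closeness to called genes largely fixes. Nearest to Fcer2a were Sephs1, Krt82 and Dmrtb1 (distances 0.22, 0.22 and 0.23), which were not called.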

How the data were processed

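RNA of 8 pools of sorted B-1a cells, 4 KO and 4 control, was measured on Affymetrix arrays after labelling with biotin; its integrity number was above 8, per the labels. The 41345 probe sets are deposited as log2 values; the authors used RMA and R 3.2.2, per the submitters' processing notes. RMA scales arrays towards 1 distribution (medians of the deposited arrays were 3.68 to 3.74), so differences are relative to other genes, and it understates folds of dim genes. Summarisation level and build: not given in the sources used here. Arrays have no read depth; their number limits the precision.

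Of the probe sets, 23521 had 1 symbol in the platform annotation, 1814 had several and 16010 were not listed; 23328 were updated through RefSeq identifiers of GRCm38.p6. Per gene the probe set with the highest mean was kept, which left 22180 genes. These were fitted with limma 3.58.1 in R 4.3.3 (lmFit, eBayes, two-sided). The labels call the pools biological replicates. The p-values weigh the difference between genotypes against the spread between pools, not between single mice.

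The genes, lists and motifs were chosen with earlier results of these data known. All 10 genes are named, with called genes and at most the 4 smallest p of each pathway list, called genes of the marker lists, and the 3 nearest profiles of Fcgr2b, Fcrl5 and Fcer2a; others are said to be chosen after their values were seen. Alternatives changed the probe set rule, the genes tested, the scaling, the prior, array weights, a replicate block, covariates and the threshold, or left out pools. Same-numbered pools were checked for shared deviations (r of 0.11, 0.04, 0.04 and 0.04), which did not show the numbers to be pairs. List members without a match, such as Lyn, were not analysed here.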

Additional observations from a re-analysis of the deposited data

Results flagged for a closer look

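Each value below lay far from the other 3 pools of its group by Dixon's criterion at the 95% level, which chance meets in about 1 group of 20; 94 groups were tested. Fcrl5 in control pool 3 was 8.35, with the next pool at 8.88. Itgam in control pool 1 was 7.70, with the next at 7.18. Cd9 in KO pool 2 was 5.96, with the next at 6.17. Tnfsf4 in KO pool 4 was 2.87, with the next at 3.61.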

How the results depend on the processing

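Fcgr2b and Fcrl5 were called in all 19 of their alternatives, with differences from -1.70 to -1.47 and from -1.57 to -1.34. The count of called genes was 320 without KO pools 1 and 2, 301 with the T cell covariate and 311 at an adjusted p under 0.01, and ran from 479 to 758 when single pools were left out. Of the 10 Fc receptor genes 2 were called without KO pools 1 and 2, and 2 at 0.01; leaving out single pools gave 3 to 4. The replicate block left 666 called genes and 3 of the 10, with Fcamr lost (adjusted p = 0.0611); Cr2, Klrb1c and Ahnak were lost too. Signs turned only for genes that were not called: Fcrl1 (-0.0065 without KO pool 3, -0.0106 without control pool 1, and up to 0.123 without other single pools), Fcrla (0.0243 without KO pools 1 and 2, 0.0784 with the T cell covariate), Fcgr3 (-0.0077 without KO pool 2, up to 0.0986 without other single pools) and Cd5 (-0.0372 without KO pool 1, -0.0161 without control pool 2, up to 0.114 without other single pools, -0.0868 without KO pools 1 and 2, -0.12 with the T cell covariate). Fits with fewer arrays or a covariate have less power; otherwise the cause was not tested.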
